A study of Oryctolagus cuniculus with 9 samples.

Results

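The genes described here encode subunits and assembly factors of the mitochondrial respiratory chain and of ATP synthase in rabbit (Oryctolagus cuniculus) vocal fold. They are the 63 of 20525 genes in the deposited expression table whose symbol begins with NDUF, UQCR, COX4 to COX8 or ATP5, or is SDHA, SDHB, SDHC or SDHD. The symbol alone chose them, not a measured value. The study sequenced polyadenylated RNA from 9 vocal fold libraries. The 3 SOT libraries came from folds that were injured and given the SOT hydrogel, named in the study's title as adhesive and antioxidant. The 3 untreated libraries came from folds that were injured and left without treatment, and the 3 normal libraries from folds without injury. Injured tissue was taken 1 week after injury. The labels give no strain, sex, age or allele, and they do not say that the libraries of a group are separate animals. The p-values therefore measure only how far these samples spread, and that spread may be technical.

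The respiratory chain passes electrons from NADH (complex I) and succinate (complex II) through complex III to oxygen at complex IV, and the proton gradient that this builds drives ATP synthase (complex V). Tissues with a high demand for ATP, skeletal muscle among them, carry many of these complexes. Some complex IV subunits exist as a form found mainly in striated muscle and heart and a form found in most cells.

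By complex, 38 members belong to complex I, 4 to complex II, 1 to complex III, 4 to complex IV and 16 to complex V. Complex I comprises 4 core subunits, 27 accessory subunits and 7 assembly factors (NDUFAF1 to NDUFAF7), which help to build the complex and are not part of it. NDUFA4 was counted with complex IV, where its protein is now placed, together with its paralogue NDUFA4L2. Complexes III and IV are thinly covered because most of their rabbit genes carry only a locus number in the table. RefSeq gives 23 of these locus-number genes a symbol of the same families (3 for complex I, 6 for III, 13 for IV and 1 for V). They are not members and are described after them. In the build OryCun2.0, 44 members lie on numbered chromosomes or X and 19 on unplaced scaffolds.

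Each library held between 44755718 and 50338111 counts, and 17344 genes passed the filter on low counts, with all 63 members among them. Levels of a gene are given as normalised read counts scaled to library size (CPM, edgeR) and levels between genes as the deposited FPKM, which corrects for gene length. The lowest library count was under 100 for 4 members, NDUFA13, NDUFAF2, NDUFB1 and ATP5I, and at least 121 for all others. The identity of 3 of these is also uncertain. The description beside NDUFA13 in the table names a different protein. NDUFB1 has other loci of the same protein and ATP5I has another, between which reads could be split. ATP5J likewise shares its description with other loci. The labels call the cell type vocal cord histiocytes, a name for tissue macrophages, and the tissue vocal fold. The 32 skeletal muscle markers measured summed to between 2956 and 14303 CPM in SOT libraries, between 1423 and 17223 CPM in untreated libraries and between 35398 and 42090 CPM in normal libraries. The 7 macrophage markers summed to between 479.9 and 821 CPM in SOT, between 1272 and 1505 CPM in untreated and between 239.9 and 288.5 CPM in normal libraries. The libraries were therefore read as whole tissue with muscle in it.

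The first comparison, of untreated with normal folds, asks how the transcripts of each complex stand 1 week after injury. Of the 63 members, 53 fell, 2 rose and 8 did not pass (edgeR's quasi-likelihood test, Benjamini-Hochberg adjusted p under 0.05). Over all 17344 genes tested, 32.8% were called, 15.1% as lower and 17.7% as higher. The median log2 fold change was -0.80 over the members and -0.02 over all genes, and 60 of the 63 fitted values were below 0, against 51.7% of all genes. The summed CPM of the members was 5222 ± 630 in untreated and 9206 ± 248 in normal folds (SD, n = 3 each). Their share of the summed FPKM of all genes was 1.02 ± 0.121% in untreated and 1.77 ± 0.0945% in normal folds (SD, n = 3 each). In bulk tissue, fewer cells of a type and less RNA per cell cannot be told apart, and this holds for every difference below. The untreated and normal libraries did not overlap for 57 members, 55 of them lower in all 3 untreated libraries and 2 higher, against 27.1% of all genes lower and 28.0% higher by the same rule. Of the 53 members that fell, 45 kept their call whichever of the 9 libraries was left out. The other 8 were NDUFA1, NDUFA2, NDUFA4, NDUFA11, NDUFB4, NDUFS3, ATP5H and ATP5J.

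**Figure D1:**
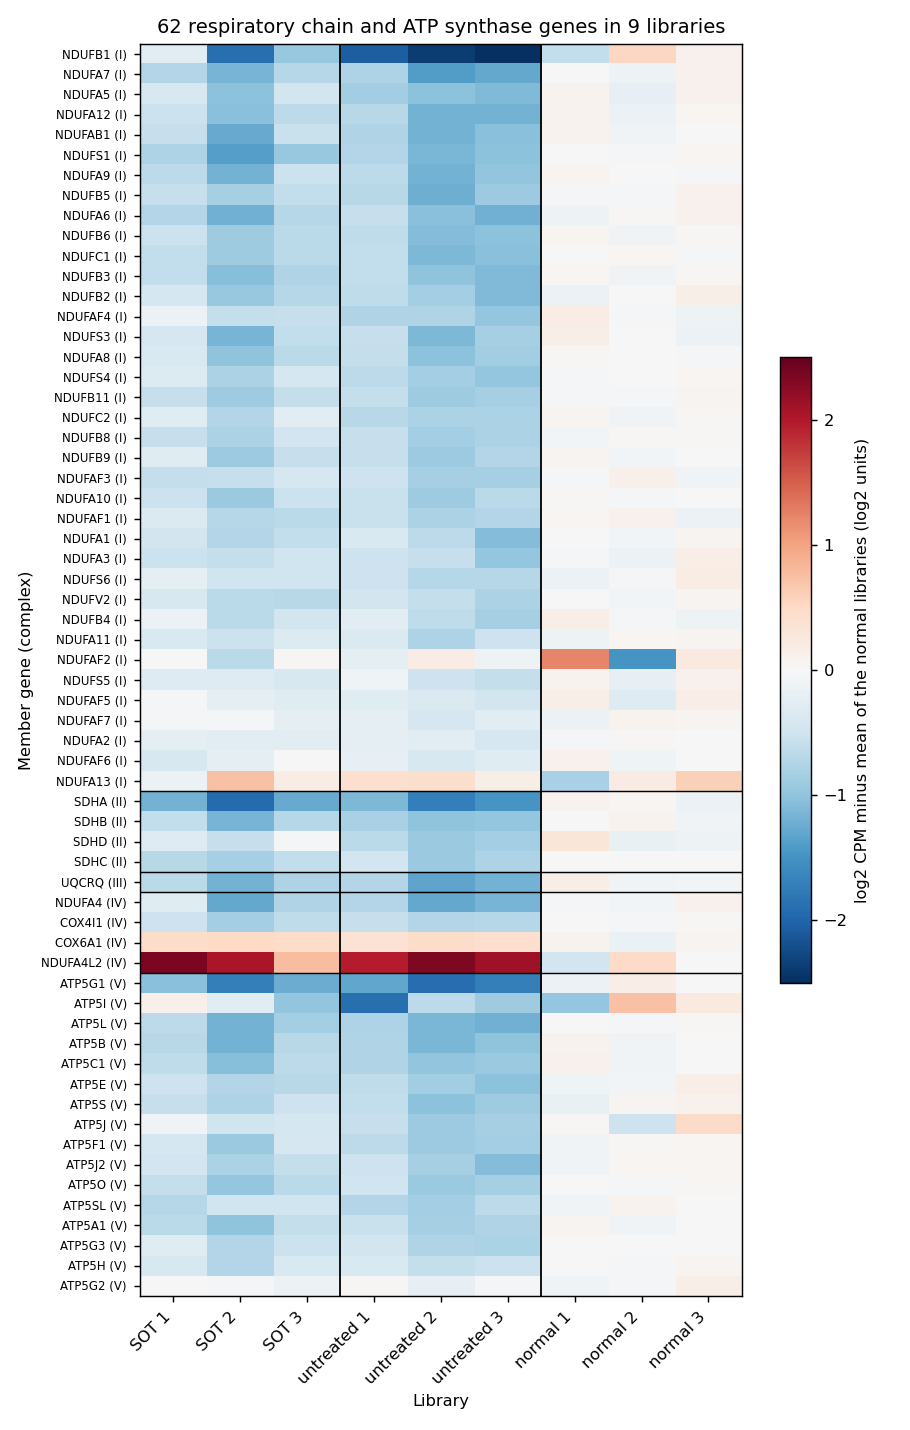
Each row is 1 of 62 of the member genes, grouped by complex, and each column 1 of the 9 libraries. The colour gives log2 CPM minus the mean of the 3 normal libraries. The SOT and untreated columns are blue for most rows, COX6A1 and NDUFA4L2 are red in all 6 injured libraries, and SOT 2 and untreated 2 and 3 are the darkest blue columns.

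Complex I, the NADH dehydrogenase, had 32 of its 38 members lower in untreated folds, with a median log2 fold change of -0.75. All 4 core subunits fell. NDUFS1, which carries iron-sulphur clusters and lies on chromosome 7 at 146914957 to 146948743, had 157, 119 and 128 CPM in untreated libraries 1 to 3, against 259, 256 and 268 CPM in normal libraries 1 to 3. Every untreated value was below every normal one. Its log2 fold change was -0.96 (SE 0.17, adjusted p = 0.00442, edgeR). NDUFS3 and NDUFV2 fell by 0.83 and 0.61 on the log2 scale.

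Of the 27 accessory subunits, which surround the core and take no part in catalysis, 25 fell, with a median of -0.81. NDUFA7 had 28.3, 18.4 and 19.9 CPM in untreated libraries, against 48.7, 44.2 and 51.8 CPM in normal libraries (log2 fold change -1.12, SE 0.19, adjusted p = 0.00402, edgeR). NDUFA5 and NDUFA12 fell by 1.01 and 1.00 on the log2 scale, and NDUFAB1, the mitochondrial acyl carrier protein, by 0.98. At the other end, NDUFA2 fell by only 0.31, with 34.9, 33.7 and 30.5 CPM in untreated libraries against 39.7, 41.7 and 41.2 CPM in normal libraries. Its groups did not overlap, but it passed in only 4 of the 9 fits with 1 library left out. The steepest accessory value, -2.38 for NDUFB1, rests on 1.32, 1.06 and 0.921 CPM in untreated against 3.57, 7.78 and 5.90 CPM in normal libraries. The 2 locus-number genes that RefSeq also names NDUFB1 did not pass, with log2 fold changes of 0.26 and -0.19 (adjusted p = 0.153 and 0.435, edgeR). The accessory subunits that did not pass were NDUFS5 (-0.40, adjusted p = 0.0700) and NDUFA13. NDUFS5 did pass with DESeq2 (adjusted p = 0.0270).

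Of the 7 assembly factors, 3 fell (NDUFAF1, NDUFAF3 and NDUFAF4), and the median was -0.42. NDUFAF3 had 22.4, 18.1 and 18.2 CPM in untreated libraries, against 31.6, 35.0 and 30.3 CPM in normal libraries, without overlap (log2 fold change -0.72). NDUFAF5, NDUFAF6 and NDUFAF7 had log2 fold changes of -0.39, -0.30 and -0.32 and did not pass (adjusted p = 0.144, 0.143 and 0.108, edgeR). Whether subunits and assembly factors differ from each other was not tested.

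All 4 subunits of complex II, succinate dehydrogenase, fell, with a median of -0.88. SDHA, the flavoprotein that oxidises succinate, had 333, 222 and 260 CPM in untreated libraries, against 769, 749 and 656 CPM in normal libraries. The highest untreated value lay below the lowest normal value by more than the range of either group. Its log2 fold change was -1.42 (SE 0.23, adjusted p = 0.00305, edgeR). SDHB, the iron-sulphur subunit, had 99.1, 86.8 and 89.7 CPM in untreated libraries, against 176, 186 and 164 CPM in normal libraries (log2 fold change -0.93). The membrane anchors SDHC, on chromosome 13 at 31640431 to 31680399, and SDHD, on chromosome 1 at 104272502 to 104288714, fell by 0.71 and 0.83. SDHD had 60.9, 50.8 and 53.6 CPM in untreated libraries, against 119, 84.8 and 88.9 CPM in normal libraries, where the first library stood above the other 2. The summed CPM of complex II in untreated libraries 1 to 3 was 53.6%, 39.1% and 43.7% of the normal mean, and that of complex I was 66.5%, 52.9% and 54.9%.

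UQCRQ, a small subunit of complex III on chromosome 3 at 15890334 to 15891335, had 127, 83.7 and 92.2 CPM in untreated libraries, against 235, 196 and 199 CPM in normal libraries. The groups did not overlap, and the log2 fold change was -1.06 (SE 0.19, adjusted p = 0.00495, edgeR). In complex IV, cytochrome c oxidase, 2 members fell and 2 rose. COX4I1, the ubiquitous form of a nuclear-encoded subunit that binds regulators of the enzyme, had 346, 310 and 314 CPM in untreated libraries, against 514, 502 and 524 CPM in normal libraries. Every untreated value was lower (log2 fold change -0.67, SE 0.12, adjusted p = 0.00476, edgeR). NDUFA4, on chromosome 10 at 28056813 to 28062920, had 105, 72.3 and 77.9 CPM in untreated libraries, against 170, 166 and 189 CPM in normal libraries (log2 fold change -1.04, adjusted p = 0.0131, edgeR). Its call was lost without untreated replicate 2 (adjusted p = 0.0544) or 3 (0.0574).

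COX6A1 and NDUFA4L2 were the only members that rose. COX6A1, the form of its subunit found in most cells, lies on chromosome 21 at 12132318 to 12134946. It had 96.6, 102 and 101 CPM in untreated libraries, against 79.9, 66.8 and 78.6 CPM in normal libraries. The untreated values lay close together and above all normal values (log2 fold change 0.41, SE 0.09, adjusted p = 0.0121, edgeR). The call was narrowly lost without untreated replicate 2 (adjusted p = 0.0504) or 3 (0.0513). NDUFA4L2, a paralogue of NDUFA4 known in human and mouse cells as a gene induced by low oxygen, had 15.3, 19.8 and 17.0 CPM in untreated libraries, against 2.79, 5.41 and 3.93 CPM in normal libraries. All untreated values were well above the normal ones, with a fold change of 4.28 (log2 2.10, SE 0.41, adjusted p = 0.00641, edgeR). It passed in all 9 fits with 1 library left out. The same 2 genes were the members called higher with each of the other tools and scalings.

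In complex V, 14 of 16 members fell, with a median of -0.82. The 4 members of the catalytic head and its central stalk (ATP5A1, ATP5B, ATP5C1 and ATP5E) fell by 0.71 to 0.95. ATP5B, which carries the catalytic sites and lies on chromosome 4 at 40143010 to 40147990, had 826, 631 and 692 CPM in untreated libraries, against 1467, 1310 and 1385 CPM in normal libraries. The groups were far apart (log2 fold change -0.95, SE 0.18, adjusted p = 0.00541, edgeR). The 4 members of the peripheral stalk, which holds the head still, fell by 0.50 (ATP5H) to 0.83 (ATP5J). Of the other membrane subunits, ATP5L and ATP5J2 fell by 1.02 and 0.80, and ATP5I did not pass at 0.209 to 0.488 CPM in untreated and 0.392 to 1.28 CPM in normal libraries. ATP5S and ATP5SL, which carry the family name without being subunits, fell by 0.84 and 0.74.

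The 3 genes of subunit c differed in their values although, as background, they encode the same mature protein, which forms the rotating membrane ring. ATP5G1, on chromosome 19 at 38526415 to 38528938, had 69.2, 45.6 and 51.7 CPM in untreated libraries, against 153, 190 and 169 CPM in normal libraries. Its lowest normal value was above the highest untreated value by more than either range, and its log2 fold change of -1.62 was the lowest of any member with at least 121 counts in every library (SE 0.21, adjusted p = 0.00157, edgeR). ATP5G3, on chromosome 7 at 114823438 to 114826605, had 130, 107 and 104 CPM in untreated libraries, against 179, 181 and 178 CPM in normal libraries (log2 fold change -0.66). ATP5G2, on chromosome 4 at 37463276 to 37471157, had 186, 157 and 175 CPM in untreated libraries, against 170, 177 and 202 CPM in normal libraries. These groups overlapped, and the log2 fold change was -0.08 (SE 0.11, adjusted p = 0.607, edgeR). Per length, ATP5G1 averaged 71.0 ± 15.8 FPKM in untreated and 223 ± 26.4 FPKM in normal folds, and ATP5G2 197 ± 17.7 FPKM in untreated and 213 ± 22.6 FPKM in normal folds (SD, n = 3 each). The contrast between these genes was chosen after their values were seen and was not tested.

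**Figure D2:**
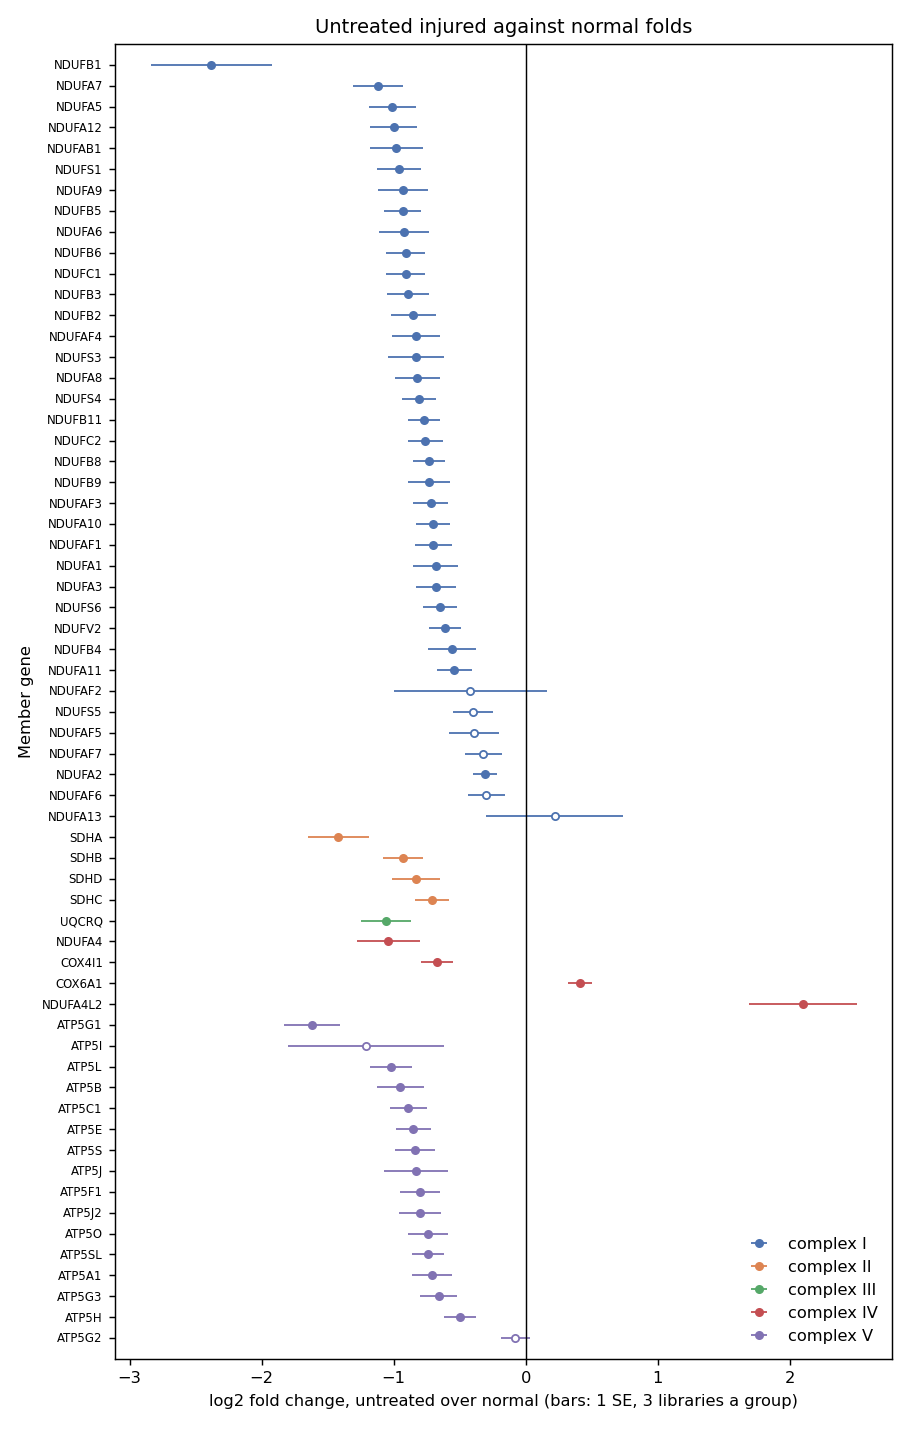
Points give the log2 fold change of 62 of the members in untreated over normal folds (edgeR, 3 libraries a group), with colours for the complex. Bars are 1 standard error, derived from the test statistic. Filled points passed an adjusted p of 0.05 and open points did not. Most points lie below 0, with COX6A1 at 0.41 and NDUFA4L2 at 2.10 on the other side of 0.

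Among the 22 locus-number genes tested, 15 fell and 1 rose in untreated folds, with a median of -0.79. Over all genes, 15.1% were called lower and 17.7% higher. Without untreated replicate 3, 9 of the locus-number genes fell. The lower calls over all genes shrank too, to 1230 in that fit, against 2618 with all 9 libraries. All 6 complex III genes fell, among them UQCRFS1, the Rieske iron-sulphur protein, with 102, 64.2 and 78.3 CPM in untreated libraries against 227, 244 and 228 CPM in normal libraries. The untreated values were all less than any normal value (log2 fold change -1.51, SE 0.24, adjusted p = 0.00308, edgeR). The scaffold subunit UQCRC2 fell by 0.98 and UQCRB by 1.29. In complex IV, 8 of 12 tested genes fell and COX8A rose. COX5A, COX5B, COX6B1, COX6C, COX7B and COX7C, the forms used in most tissues, fell by 0.66 (COX6B1) to 1.37 (COX6C). COX7A2L, which joins complexes III and IV into larger assemblies, did not pass (-0.05, adjusted p = 0.675, edgeR). COX4I2, the lung and low-oxygen form of COX4, stayed at or below 4.81 CPM in every library. Its untreated values were all above its normal values (log2 fold change 0.54), but it did not pass. COX7B2, a form known from testis, was too low to be tested.

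The muscle forms of complex IV subunits had the lowest log2 fold changes of the members and locus-number genes. COX7A1, the muscle and heart form, had 11.3, 1.10 and 2.74 CPM in untreated libraries, against 63, 74.1 and 71.6 CPM in normal libraries (log2 fold change -3.78, SE 0.92, adjusted p = 0.0156, edgeR). Its counterpart in most cells, COX7A2, had 22.9, 22.6 and 19.9 CPM in untreated libraries, against 20.7, 20.8 and 26.4 CPM in normal libraries, with overlap (log2 fold change -0.06, adjusted p = 0.795, edgeR). The muscle form was far lower in untreated libraries 2 and 3 than in library 1, whereas COX7A2 was nearly level over all 6. COX6A2, the muscle form that pairs with COX6A1, had 18.5, 2.19 and 5.23 CPM in untreated libraries, against 54.7, 87.3 and 87.8 CPM in normal libraries (log2 fold change -3.15, adjusted p = 0.0210, edgeR). A further locus described in the table as the same form had a log2 fold change of -3.20, and reads could be split between them. Without untreated replicate 3 the calls of COX7A1 (adjusted p = 0.0668) and COX6A2 (0.0830) were lost, and that of COX6A2 also without normal replicate 2 (0.0525). A locus described as the muscle form COX8B had 17.3, 1.55 and 5.49 CPM in untreated libraries, against 73.6, 84.5 and 79.1 CPM in normal libraries (log2 fold change -3.29, adjusted p = 0.0272, edgeR). It passed in 4 of the 9 fits with 1 library left out. COX8A, the form found in most cells, had 95.9, 102 and 101 CPM in untreated libraries, against 66.0, 72.3 and 77.5 CPM in normal libraries (log2 fold change 0.47, adjusted p = 0.00853, edgeR). The order was thus the same as for COX6A1, with every untreated value above every normal one.

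The ratio of the muscle form to the common form was taken within each library from FPKM. The log2 ratio of COX6A2 to COX6A1 was -3.22 ± 1.59 in untreated and 0.85 ± 0.49 in normal folds (SD, n = 3 each). For COX7A1 to COX7A2 it was -2.24 ± 1.68 in untreated and 2.14 ± 0.20 in normal folds, and for COX8B to COX8A it was -3.97 ± 1.79 in untreated and 0.41 ± 0.10 in normal folds. All 3 ratios were below 0 in each untreated library and above 0 in each normal library. An exact two-sided permutation test gave p = 0.1 for each of them, the smallest that 3 against 3 allows, and 0.15 after adjustment over the 9 ratio comparisons. In SOT folds the same ratios were -2.68 ± 1.27, -1.62 ± 1.32 and -3.39 ± 1.65 (SD, n = 3), with an exact p of 0.7 for SOT against untreated folds in each.

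**Figure D3:**
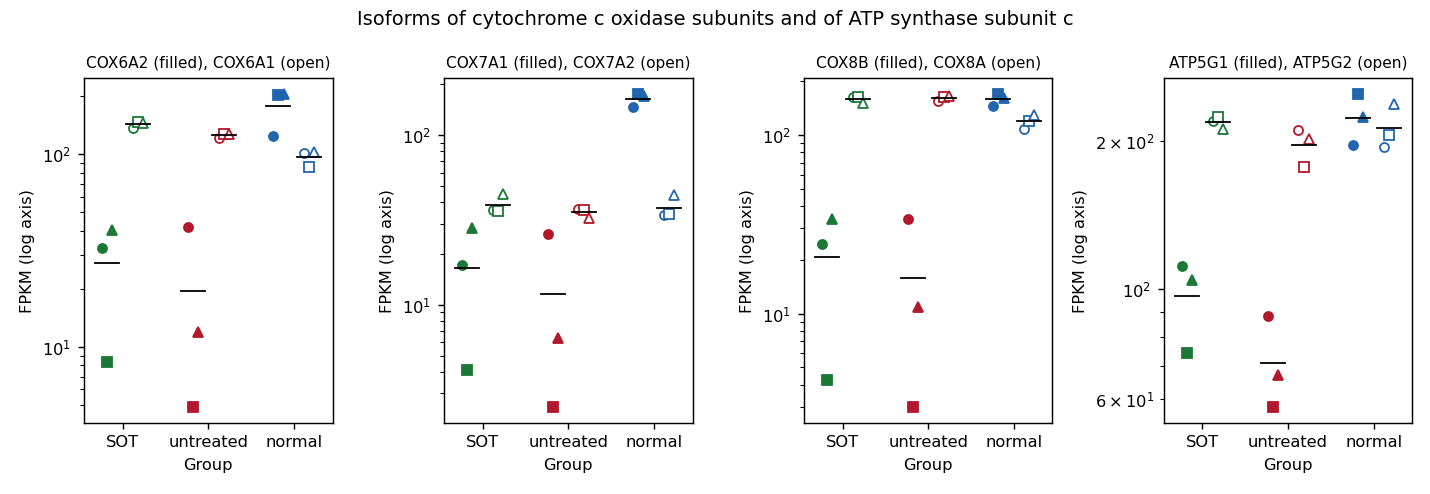
Each panel gives, for SOT, untreated and normal libraries, the FPKM (log axis) of a muscle form or of ATP5G1 (filled) and of its counterpart (open), with a line at the group mean. Circles, squares and triangles are libraries 1, 2 and 3. The filled points of COX6A2, COX7A1 and COX8B are lowest in SOT 2 and untreated 2, whereas their open counterparts vary far less. The open points of COX6A1 and COX8A are higher in every untreated than in any normal library.

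The comparison of SOT with untreated folds asks whether the hydrogel went with a difference 1 week after injury. No member passed (edgeR's quasi-likelihood test), and 3 had an unadjusted p under 0.05, against 0.0115% of all genes called by the adjusted test and 12.6% with such an unadjusted p. DESeq2 called 0 members as well (6 unadjusted), although it called 229 genes higher and 453 lower among the 17344. With limma on log2(FPKM + 0.1), 0 members (19 unadjusted) and 0 genes in all were called. Without SOT replicate 1, when 397 genes were called in all, 0 were members. The median log2 fold change of the members was 0.14 and that of all genes 0.01, and 6 of the 63 fitted values were below 0, against 48.4% of all genes. By summed CPM the members stood at 5572 ± 815 in SOT and 5222 ± 630 in untreated folds (SD, n = 3 each), a difference smaller than either SD. Their share of the summed FPKM was 1.22 ± 0.122% in SOT and 1.02 ± 0.121% in untreated folds (SD, n = 3 each), a difference larger than either SD. The libraries still overlapped, with 1.25%, 1.09% and 1.33% in SOT libraries 1 to 3 and 1.16%, 0.931% and 0.976% in untreated libraries 1 to 3. In the lists of related genes and cell type markers, edgeR on all 9 libraries called 0 genes here. DESeq2 called 5 of 7 macrophage markers, 2 of 32 muscle markers and 1 of 6 fibroblast markers lower in SOT folds, and 2 of 10 cartilage markers higher and 1 lower. Without SOT replicate 1, edgeR called 4 macrophage, 3 neutrophil and 3 glycolysis genes lower.

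Single members differed in how far apart the groups stood. SDHA had 317, 191 and 303 CPM in SOT libraries, against 333, 222 and 260 CPM in untreated libraries, with overlap (log2 fold change -0.01, SE 0.22, adjusted p = 0.991, edgeR). SDHD had 77.5, 64.5 and 93.5 CPM in SOT libraries, against 60.9, 50.8 and 53.6 CPM in untreated libraries. All 3 SOT values were above all untreated values, and the log2 fold change was 0.51 (SE 0.18, adjusted p = 0.299, edgeR). ATP5J had 66.2, 49.8 and 52.0 CPM in SOT libraries, against 47.2, 37.4 and 39.7 CPM in untreated libraries, also without overlap (log2 fold change 0.43, adjusted p = 0.498, edgeR). In all, 7 members had every SOT value above every untreated value (NDUFAF4, NDUFAF7, NDUFB1, NDUFS6, SDHD, COX6A1 and ATP5J) and 0 had every SOT value below. Among all genes the shares were 7.40% above and 12.4% below. NDUFA4L2 had 19.8, 16.2 and 6.62 CPM in SOT libraries, against 15.3, 19.8 and 17.0 CPM in untreated libraries, where SOT library 3 stood below all others (log2 fold change -0.29, adjusted p = 0.795, edgeR). Among the locus-number genes, COX7A2L had 55.4, 51.6 and 53.3 CPM in SOT libraries, against 43.0, 43.5 and 40.2 CPM in untreated libraries. These did not overlap, and the log2 fold change of 0.34 did not pass with edgeR (adjusted p = 0.195) but did with DESeq2 (adjusted p = 0.000232).

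In SOT against normal folds, 41 members fell, 2 rose and 20 did not pass (edgeR), against 7.67% of all genes called lower and 9.01% called higher. The median log2 fold change was -0.62, against 0.02 over all genes, and 60 fitted values were below 0, against 48.2% of all genes. The summed CPM was 5572 ± 815 in SOT and 9206 ± 248 in normal folds (SD, n = 3 each). By complex, 23 of 38 members fell in complex I, 3 of 4 in complex II, UQCRQ in complex III and 13 of 16 in complex V, while COX4I1 fell and COX6A1 and NDUFA4L2 rose in complex IV. The count of lower members was 13, 22 and 25 without normal replicates 1, 2 and 3, and 17 without SOT replicate 2. The lower calls over all genes shrank too, being 558, 652 and 1026 without normal replicates 1, 2 and 3 and 663 without SOT replicate 2, against 1331 with all 9 libraries. The median of the members changed less, at -0.64, -0.67, -0.58 and -0.53 in these 4 fits. An unadjusted p under 0.05 (edgeR) was held by 51, 52, 49 and 49 members in them. With all 9 libraries it was held by 53 members and 33.7% of all genes. When the untreated libraries were left out of the fit, 26 members and 886 genes in all were lower, and neither of the 2 members that rose passed. NDUFB8, NDUFB11, NDUFS1, SDHA, SDHB, SDHC, COX4I1, ATP5C1, ATP5G1 and ATP5L fell, and COX6A1 rose, in all 9 fits with 1 library left out.

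The values of those members in SOT folds stood near those of untreated folds. ATP5G1 had 82.9, 51.8 and 72.3 CPM in SOT libraries, against 153, 190 and 169 CPM in normal libraries, without overlap (log2 fold change -1.31, SE 0.21, adjusted p = 0.00858, edgeR). NDUFS1 had 153, 101 and 135 CPM in SOT libraries, all below its normal values (log2 fold change -1.01). COX6A1 had 103, 105 and 103 CPM in SOT libraries, all above its normal values (log2 fold change 0.47, adjusted p = 0.0153, edgeR). NDUFA4L2 was again higher (log2 fold change 1.81, adjusted p = 0.0209, edgeR), and its call was lost in 4 of the 9 fits with 1 library left out. SDHD had overlapping libraries and did not pass (log2 fold change -0.32, adjusted p = 0.246, edgeR), and neither did NDUFA4 (-0.73, adjusted p = 0.0719). Of the 22 locus-number genes tested, 13 fell, among them COX7A1 (-3.42) and COX6A2 (-2.80). That number was 3, 5 and 6 without normal replicates 1, 2 and 3, 4 without SOT replicate 2 and 7 without untreated replicate 3. The comparisons of SOT and of untreated folds with normal folds share the 3 normal libraries.

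The members varied between libraries of the same group in a common order. SOT library 2 held the lowest value of its group for 50 of the 63 members, against 34.3% of all genes tested. In untreated folds library 1 held the highest value for 57 members (40.5% of all genes), library 2 the lowest for 39 (37.8%) and library 3 for 20 (21.8%). In normal folds library 2 was the lowest for 32 (34.5%). A member score per library, the mean log2 CPM over the 63 genes minus the normal mean, was -0.40, -0.76 and -0.52 in SOT libraries 1 to 3, against -0.55, -0.81 and -0.81 in untreated libraries and -0.01, -0.03 and 0.05 in normal libraries.

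The skeletal muscle markers followed this order in part. Their score over 32 genes was -1.54, -3.54 and -1.53 in SOT libraries, against -1.06, -4.63 and -2.28 in untreated libraries and -0.01, -0.04 and 0.05 in normal libraries. SOT 2 was thus lowest of its group in both scores, untreated 1 highest of its group in both. SOT 1 and 3 had nearly the same muscle score but differed in the member score, and untreated 2 and 3 had the same member score at muscle scores more than 2 log2 units apart. As summed CPM relative to the normal mean, the muscle markers stood at 35.9%, 7.42% and 33.9% in SOT libraries 1 to 3 and at 43.3%, 3.58% and 18.3% in untreated libraries 1 to 3. The members stood at 66.8%, 50.4% and 64.3% in SOT libraries and at 64.4%, 51.4% and 54.3% in untreated libraries. The library with the least muscle RNA, untreated 2, therefore kept 51.4% of the normal member level beside 3.58% of the normal muscle level. The 9 libraries fall into separate clusters, so no correlation is given, and the part of muscle content in the fall of the members was not tested.

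**Figure D4:**
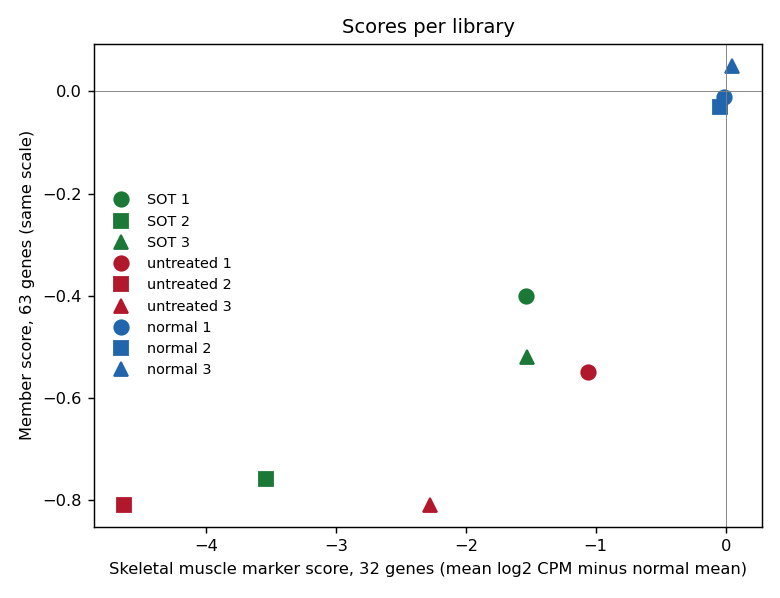
Each point is 1 library, with its skeletal muscle score (32 genes) on the horizontal axis and its score over the 63 members on the vertical axis, both as mean log2 CPM minus the mean of the normal libraries. The normal libraries lie together at 0, and in the 6 injured libraries the member score lies between -0.81 and -0.40 while the muscle score runs from -4.63 to -1.06.

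Of the 32 muscle markers, 16 fell and 0 rose in untreated against normal folds, with a median log2 fold change of -2.37. The fitted values ran from -6.24 to 1.83, with 2 above 0. DESeq2 called 23 of these markers lower and 1 higher, against 3626 and 3555 of all genes. When untreated replicate 3 was left out 1 fell, when normal replicate 1 or 2 was left out 3 fell, and when normal replicate 3 or untreated replicate 2 was left out 4 fell. Over all genes the lower calls were 1230 without untreated replicate 3, 1416 without untreated replicate 2, and 1677, 1792 and 2162 without normal replicates 1, 2 and 3, against 2618 with all 9 libraries, and the same fits underlie the counts with a library left out for the lists below. In SOT against normal folds 5 muscle markers fell and 1 rose (edgeR), against 7.67% of all genes lower and 9.01% higher. No muscle marker was at 0 in any library except MYBPC2 in untreated 2. Cartilage markers fell as well, with 8 of 10 lower and summed levels of 194.8 to 611 CPM in SOT, 244 to 358 CPM in untreated and 2415 to 4968 CPM in normal libraries. All 7 macrophage markers and 5 of 6 neutrophil markers rose, as did 4 of 6 fibroblast markers, while the fibroblast marker DCN, the proteoglycan decorin, fell by 0.63. The fibroblast markers summed to between 18506 and 37842 CPM in SOT, between 41776 and 43769 CPM in untreated and between 10663 and 13158 CPM in normal libraries. Of the 8 gland and ciliated airway markers, 2 fell (25%, against 15.1% of all genes). They summed to between 457 and 3016 CPM in SOT and between 592 and 2761 CPM in untreated libraries, against 21007, 24951 and 2127 CPM in normal libraries 1 to 3, where the third stood apart. Of the 2 brown fat markers, UCP1, the uncoupling protein of brown fat, was at 0 in 8 of 9 libraries. CIDEA, the other, was lower in every untreated than in any normal library (log2 fold change -2.43, adjusted p = 0.0761, edgeR). It did not pass with edgeR on all 9 libraries but was called lower with DESeq2. Both together summed to between 0.449 and 7.56 CPM in SOT, between 1.61 and 4.08 CPM in untreated and between 9.32 and 22.9 CPM in normal libraries. The part of these cell types in the values of the members was not tested.

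The citric acid cycle, which supplies NADH and succinate to the chain, had 16 of 18 listed genes lower in untreated folds, with a median of -0.82. The malate dehydrogenase gene MDH2 had 212, 142 and 170 CPM in untreated libraries, against 425, 415 and 457 CPM in normal libraries, without overlap (log2 fold change -1.31, SE 0.21, adjusted p = 0.00336, edgeR). DLD, the shared lipoamide dehydrogenase, fell by 1.22. The count was 13 without untreated replicate 2 or 3. Of 8 genes of the outer membrane and import, 6 fell, led by the channel VDAC1 at -1.03, but 2 did when untreated replicate 3 was left out, and 3 did when untreated replicate 2 or normal replicate 1 or 3 was. Of 14 further assembly factors of complexes I, II and V, 7 fell (ECSIT by 1.14 and TMEM70 by 0.92), with 4 when normal replicate 1 or untreated replicate 2 or 3 was left out and 11 with DESeq2. Of 24 assembly factors of complexes III and IV, 5 fell (20.8%, against 15.1% of all genes), with a median of -0.35. COX10, an enzyme on the path to the haem of complex IV, was lowest at -1.24. The number that fell was 12 with DESeq2, which called 3626 genes lower in all, against 2618 with edgeR. It was 3 when untreated replicate 2 or 3 was left out.

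Among 11 regulators of mitochondrial biogenesis, 2 fell in untreated folds, a share of 18.2% that was near the 15.1% of all genes. Their median log2 fold change was -0.155, against -0.02 over all genes. PPARGC1A, a coactivator of mitochondrial genes, had 11.9, 5.45 and 5.30 CPM in untreated libraries, against 33.6, 30.0 and 23.5 CPM in normal libraries (log2 fold change -1.94, adjusted p = 0.00677, edgeR). In SOT libraries it had 21.4, 10.5 and 17.3 CPM, of which library 2 lay within the untreated range (log2 fold change 1.12 against untreated, adjusted p = 0.287, edgeR). TFAM, which packages mitochondrial DNA, fell by 0.36 but passed in only 4 of the 9 fits with 1 library left out, so that without any of the untreated replicates or without normal replicate 1 or 3 the number was 1. NRF1 (-0.14), GABPA (0.01) and ESRRA (-0.26) did not pass. CYCS, cytochrome c, had 188, 107 and 135 CPM in untreated libraries, against 414, 253 and 165 CPM in normal libraries, and did not pass (log2 fold change -0.95, adjusted p = 0.0975, edgeR).

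Of 20 glycolysis genes, 5 rose (25%, against 17.7% of all genes) and 7 fell (35%, against 15.1%) in untreated folds. HK3, a hexokinase of blood cells, rose by 4.66, ENO1 by 1.44 and PGAM1 by 1.20, whereas the muscle forms PGAM2 and ENO3 fell by 2.79 each and ALDOC by 4.24. PGAM1 and PGAM2 encode forms of the same enzyme, as ENO1 and ENO3 do. Without any of the normal replicates or of untreated replicates 2 and 3, between 3 and 4 glycolysis genes were lower, and 9 and 8 were higher without SOT replicate 1 and 3. ENO3 passed in 3 and PGAM2 in 5 of the 9 fits with 1 library left out. The 11 mitochondrially encoded subunits in the table summed to between 1.01 and 1.51 CPM in SOT, between 0.963 and 1.26 CPM in untreated and between 2.74 and 4.46 CPM in normal libraries, and only 2 of them could be tested. Their summed FPKM was 177 ± 36.3 in SOT, 143 ± 18.3 in untreated and 467 ± 143 in normal folds (SD, n = 3 each), far above their CPM. ATP6 was listed at 0 in every library but normal 3, and ATP8, which overlaps it, at 0 in normal 3 alone. How the reads of these genes were assigned was not tested. ND4L, a complex I subunit, fell by 1.37 (adjusted p = 0.0448, edgeR) but passed in 0 of the 9 fits with 1 library left out.

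By level, ATP5B, COX4I1, ATP5A1 and ATP5O were the 4 members with the highest FPKM in SOT, untreated and normal folds alike. ATP5B averaged 403 ± 70.4 FPKM in SOT, 337 ± 48.0 FPKM in untreated and 667 ± 32.4 FPKM in normal folds (SD, n = 3 each). COX4I1 averaged 395 ± 37.3 FPKM in SOT, 357 ± 22.1 FPKM in untreated and 581 ± 17.2 FPKM in normal folds. In SOT and in untreated folds its level overlapped that of ATP5B within the spread. Lower in the order, COX6A1 ranked 12 of 63 in SOT and 11 in untreated folds, against 25 in normal folds. ATP5G1 ranked 17 in SOT and 21 in untreated folds, against 10 in normal folds, and SDHA 15 in SOT and 14 in untreated folds, against 7 in normal folds. The lowest FPKM values belonged to ATP5I, NDUFA13 and NDUFAF2, the genes with few counts.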

How the data were processed

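The deposited table gives, per the file headers, a read count and an FPKM for each gene and library. Whole-number counts were used as the authors deposited them, and the deposited FPKM was used for levels between genes. Per the submitters' processing notes, cutadapt 1.9, HISAT2 2.0.4, StringTie 1.3.4d, edgeR and the build OryCun2.0 were used. How strand and multiply mapped reads were handled is not given in the sources used here, so overlapping genes and near-identical copies are uncertain. Total counts were 44755718 to 50338111 per library, and their number limits the precision.

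Tests on counts used edgeR 4.0.16 in R 4.3.3 (filter by expression, TMM scaling, a quasi-likelihood fit with 1 mean per group over all 9 libraries, Benjamini-Hochberg adjustment over 17344 genes, threshold 0.05). The edgeR step alone was tried on simulated counts, in which far fewer genes changed than were called in untreated against normal folds. That trial does not show how the step performs on these data. Alternatives were DESeq2 1.42.0, RLE scaling, limma 3.58.1 with quantile normalization or on log2(FPKM + 0.1) and log2(FPKM + 1), no filter, the compared groups only, a replicate block and leaving out each library. Isoform ratios were tested by exact permutation in scipy 1.17.1. The SE beside a log2 fold change from edgeR was derived, as the test gives none. It is the absolute log2 fold change divided by the square root of the F statistic of the quasi-likelihood test.

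Members were chosen by symbol. Of 5734 locus-number genes, 660 took a symbol from RefSeq (assembly mOryCun1.1, used for names only). The genes named were, per comparison and complex, up to 3 that changed most without overlap in each direction (or the 2 with the smallest p), the 3 with the highest FPKM, a fixed list of subunits and those against the majority. In the other lists they were up to 3 with the largest change. Genes named besides these were chosen after their values were seen. The members, lists and rules were chosen with earlier results of these data known. No sequences are shown. The values of 1 member are not reported here singly: it is left out of the plots of single genes but counted in all totals.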

Additional observations from a re-analysis of the deposited data

How the results depend on the processing

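In untreated against normal folds the number of lower members was 52 to 55 over the 8 alternatives that kept all libraries of the 2 groups and 45 to 54 when 1 library was left out, and 2 members rose except that 1 did without untreated replicate 2 or 3 (range 1 to 2). In SOT against untreated folds 0 members were called in every alternative. The median of the members was 0.28 with limma on log2(FPKM + 0.1), which moved the median of all genes to 0.13 (0.12 in SOT against normal folds) and the calls in SOT against normal folds to 2310 higher and 1345 lower, against 1563 and 1331 with edgeR. In SOT against normal folds, with the compared groups only, 26 members were lower and 0 higher. With 1 library left out, 13 to 40 were lower and 1 to 2 higher, while 558 to 1235 genes in all were lower, against 1331 with all 9 libraries. The cause of these shifts was not tested. No member's direction reversed among the calls.

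With the replicate number as a block, the numbers of higher and lower members were 2 and 52 in untreated against normal, 0 and 0 in SOT against untreated and 2 and 42 in SOT against normal folds. To look for pairing, the mean of its own group was subtracted from each gene's log2 CPM. The deviations that remained were correlated between samples of different groups. For samples of the same number the correlations were 0.081, 0.0131 and 0.0507 (untreated and normal), 0.102, 0.267 and -0.0221 (SOT and untreated) and -0.0484, -0.0166 and 0.0802 (SOT and normal). For samples of different numbers they ran from -0.0793 to 0.0424, from -0.276 to 0.174 and from -0.103 to 0.12 in the same order. These values do not settle whether the numbers pair samples, and the main fits did not pair them. With 3 libraries a group, small differences between SOT and untreated folds may not be detectable, and counting error is largest for NDUFA13, NDUFAF2, NDUFB1 and ATP5I, the members with the fewest counts.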
